A study of Mus musculus with 6 samples.

Results

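The 10 genes described here encode the calcium and calcineurin machinery that acts upstream of the NFAT transcription factors: the calcineurin subunits Ppp3ca, Ppp3cb and Ppp3r1, the calcineurin regulator Rcan1, the calcium release channels Itpr1 and Itpr2, the store-operated entry pair Stim1 and Orai1, and the calcium pumps Atp2a2 and Atp2b1. The rule that defines them is a list of names and uses no measured value, though earlier results of these data were known when the list was made. All 10 were found among the 15982 genes of the authors' deposited table, each in a single row. RNA came from primary bone marrow-derived macrophages of control mice (Ctrl) and of mice with a deletion of the mitotic checkpoint kinase Bub1 restricted to myeloid cells (Bub1 cKO), with 3 libraries per genotype. Both groups had the same culture: M-CSF (20 ng/ml) alone for 3 days, then M-CSF (20 ng/ml) plus RANKL (50 ng/ml) for 2 days. RANKL is the cytokine that starts osteoclast formation. The line that drives the deletion, the genotype of the controls beyond their name, and the strain, sex and age of the mice were not given in the sources used here. Nothing in the labels says whether the 3 libraries of a genotype came from separate animals or cultures, so each p reflects a spread between libraries that may be purely technical.

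RANKL and the ITAM-bearing co-receptors of the osteoclast precursor activate phospholipase C-gamma, which produces inositol trisphosphate. This messenger opens IP3 receptors in the endoplasmic reticulum (ER). The loss of calcium from the ER is sensed by STIM1, which opens ORAI1 in the plasma membrane. Calcium bound to calmodulin activates the phosphatase calcineurin, which removes phosphates from NFATc1, the master transcription factor of osteoclasts, and lets it enter the nucleus. SERCA pumps refill the ER and PMCA pumps move calcium out of the cell, so that the signal ends or oscillates.

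Rcan1 is the member of the group that both binds calcineurin and is known as a transcriptional target of calcineurin and NFAT, through its internal promoter. RefSeq lists 2 starts of the gene on chromosome 16 (GRCm38.p6, minus strand), 66091 bases apart, and the 250 bases before each are shown because they differ in the NFAT and AP-1 motifs they hold. Capitals mark GGAAA, the core of the NFAT site, and TGACTCA, the AP-1 site, on either strand, so that TTTCC is GGAAA on the other strand. The upstream window is chr16:92466170-92466419 and the internal one chr16:92400079-92400328.
Rcan1 upstream start: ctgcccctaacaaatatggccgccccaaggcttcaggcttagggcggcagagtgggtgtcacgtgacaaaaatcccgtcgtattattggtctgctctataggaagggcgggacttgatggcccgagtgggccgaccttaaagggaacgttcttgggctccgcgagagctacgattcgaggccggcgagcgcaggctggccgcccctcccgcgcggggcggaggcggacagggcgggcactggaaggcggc
Rcan1 internal start: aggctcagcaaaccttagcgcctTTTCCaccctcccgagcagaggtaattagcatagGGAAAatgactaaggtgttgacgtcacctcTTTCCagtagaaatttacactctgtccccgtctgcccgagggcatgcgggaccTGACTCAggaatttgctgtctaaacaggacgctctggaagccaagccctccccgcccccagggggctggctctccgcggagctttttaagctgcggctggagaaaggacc
The upstream window held 0 copies of GGAAA and the internal window 3, with 1 copy of TGACTCA, none of them overlapping. Of 32851 promoter windows of this length in the same RefSeq table, 6.39% held at least 3 copies of GGAAA, 4.46% held TGACTCA and 0.320% held at least 3 of the first with at least 1 of the second. The cut-offs of 3 and 1 equal the counts of the internal window, which is shown for its motifs, so these shares are no test of it. RefSeq promoter windows were found for 7 of the 10 genes, 9 windows in all. Of these 3 held GGAAA at least once, beside 55.6% of all windows: besides the internal window of Rcan1, Ppp3cb had 3 copies of GGAAA and the first window of Atp2b1 had 1. These matches describe the letters in a window and are no measure of binding. The libraries are 3' tags: the 5 coding transcripts annotated for Rcan1 end within 557 bases of each other, and the deposited values are per gene, so they do not separate the starts.

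None of the 10 genes passed the test between genotypes. By the authors' deposited table, 0 of 10 had an adjusted p under 0.05, beside 29 of 15982 genes, or 0.181%, over the whole table. At an unadjusted p under 0.05 the count was again 0 of 10, where the whole table had 4.81%. The name of the authors' test was not given in the sources used here. By the sign of the authors' statistic 5 members were on the side of Bub1 cKO and 5 on the side of Ctrl. Their median log2 change was 0.01, beside -0.01 over all gene symbols of the table. Values are 1 expression value per gene and group, read as TPM, a scale that corrects for library size and transcript length, and the deposited log2 change is that of the group values after adding a pseudocount of 1. The table also holds a statistic and a standard error. Their product, taken here as the effect size fitted by the test, is called the estimated log2 change below and is given with its normal 95% interval. This reading is inferred, since the test is not named.

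The authors' deposited table has the targeted gene Bub1 at 6.73 TPM for Ctrl and 5.32 TPM for Bub1 cKO with an adjusted p of 0.985, but reads 3' of the deletion could remain, which makes this no check of the labels. All 7 osteoclast markers and all 7 macrophage markers examined were present in the table, summing to 1871 and 2147 TPM and to 2599.9 and 1220.1 TPM for Ctrl and Bub1 cKO. Of the 7 osteoclast statistics, which include that of Nfatc1, 5 were positive and those of Mmp9 and Oscar were negative. Of these osteoclast markers 0 passed the threshold. The gap in the macrophage sum was that of Lyz2, the lysozyme gene, at 2141 and 762 TPM per the authors' deposited table (adjusted p = 0.00033). The other 6 macrophage markers summed to 459 and 458 TPM, but this sum holds markers on both sides. Of the 7 macrophage statistics 2 were positive. Cd68 stood at 260 and 306 TPM, against 116 and 96.7 TPM for Csf1r, 36.3 and 27.1 TPM for Itgam and 43.6 and 24.4 TPM for Adgre1. Only Lyz2 passed the threshold. The 5 erythroid markers present of 6 summed to 19.6 TPM for Ctrl and 358 TPM for Bub1 cKO, and the 7 neutrophil markers present of 8 to 83.4 and 225 TPM, with Alas2, Elane and Camp at 0 in Ctrl per the authors' deposited table. All 5 erythroid and all 7 neutrophil statistics were positive. By the authors' adjusted p, Hbb-bs (0.00017), Hbb-bt (0.025) and Cxcr2 (0.036) passed the threshold. Megakaryocyte markers, 4 of 4, summed to 266 and 290 TPM with Gp9 at 0 in Ctrl, nearly all of it Pf4: the other 3 summed to 0.592 and 1.77 TPM. T cell markers, 3 of 3, summed to 1.11 and 0.349 TPM with Cd3e at 0 in Bub1 cKO, stromal markers, 4 of 4, to 2.10 and 2.66 TPM, and 0 of 3 B cell markers were in the table. The part of these cells in the values below was not tested, and in bulk RNA fewer cells of a type and less RNA per cell cannot be told apart.

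**Figure D1:**
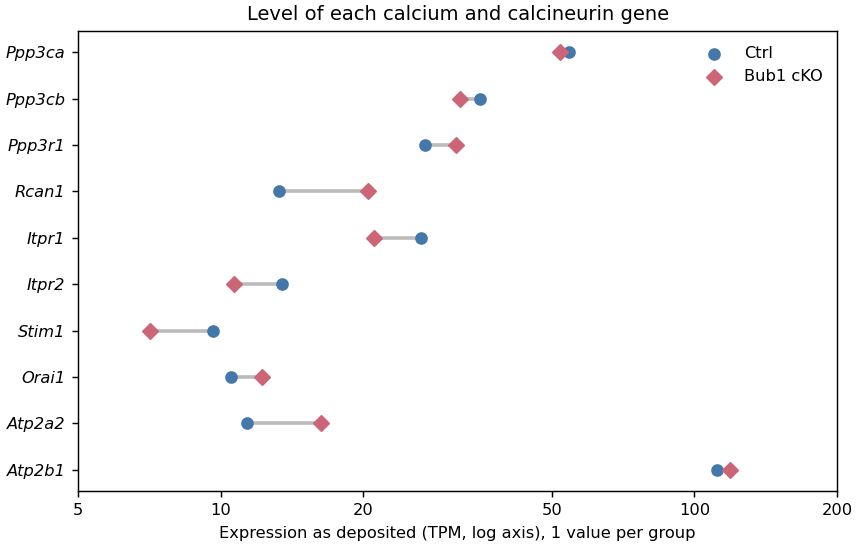
Expression of each gene in Ctrl (circles) and Bub1 cKO (diamonds), 1 value per group from the authors' deposited table, in TPM on a log axis. Atp2b1 lies highest and Stim1 lowest in Bub1 cKO, and Rcan1 and Atp2a2 have the widest gaps towards higher values in Bub1 cKO.

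On the TPM scale, the plot of levels spans from 7.10 TPM for Stim1 in Bub1 cKO to 119 TPM for Atp2b1 in the same group. All 10 genes had a mean above the median gene of the authors' deposited table, 3.67 TPM, and lay between the 64.7th and 94.1st percentile of level. In order of mean level they ran Atp2b1, Ppp3ca, Ppp3cb, Ppp3r1, Itpr1, Rcan1, Atp2a2, Itpr2, Orai1 and Stim1. No spread over libraries was used here, so neighbours in this order cannot be told apart by error. Whether the unit is TPM or CPM cannot be told from the column sums, and division by transcript length would lower long transcripts such as those of the IP3 receptors in a 3' tag library.

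Calcineurin came first. Ppp3ca, the alpha isoform of the catalytic subunit, stood at 54.3 TPM for Ctrl and 51.9 TPM for Bub1 cKO per the authors' deposited table (log2 change -0.06, adjusted p = 0.988). Its estimated log2 change was -0.02, with an interval from -0.30 to 0.25. This corresponds to a ratio of Bub1 cKO to Ctrl between 0.813 and 1.19. Ppp3cb, the beta catalytic isoform, stood at 35.2 and 32.0 TPM per the authors' deposited table (log2 change -0.14). Its estimated log2 change was 0.12 with an interval from -0.66 to 0.90. The interval of Ppp3cb is wide, from a ratio of 0.633 to 1.87, and the deposited and estimated changes have opposite signs.

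Ppp3r1, a calcium-binding regulatory subunit of calcineurin, had 26.9 TPM for Ctrl and 31.4 TPM for Bub1 cKO per the authors' deposited table (log2 change 0.22). Its estimated log2 change was 0.37 with an interval from -0.09 to 0.82 and an unadjusted p of 0.115, the second smallest of the group. The gene shares 462 exon bases with Wdr92 on the same strand in the annotation used, so the split of reads between them is uncertain. Wdr92 itself stood at 5.40 and 4.83 TPM per the authors' deposited table.

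Rcan1, which binds calcineurin and restrains it, had the smallest p of the group. It stood at 13.2 TPM for Ctrl and 20.4 TPM for Bub1 cKO per the authors' deposited table, a value 54.4% higher, with a log2 change of 0.59. The estimated log2 change was 0.66 (standard error 0.36). Its interval ran from -0.05 to 1.37, a ratio between 0.964 and 2.59, and it did not pass: the unadjusted p was 0.070 and the adjusted p 0.985 per the authors' deposited table. A difference in Rcan1 was not detected, and with its standard error an estimated log2 change of 1.43 would have been needed for a call.

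The IP3 receptors are the channels that release calcium from the ER. Itpr1 stood at 26.5 TPM for Ctrl and 21.1 TPM for Bub1 cKO per the authors' deposited table (log2 change -0.32, unadjusted p = 0.226). Its estimated log2 change of -0.25, with an interval from -0.66 to 0.16, had the same sign. Itpr2 stood at 13.5 and 10.6 TPM with a log2 change of -0.31 per the authors' deposited table, but its estimated log2 change was 0.03 with an interval from -0.65 to 0.71. Both receptor genes thus had lower TPM for Bub1 cKO by a like amount (changes of -20.5% for Itpr1 and -20.99% for Itpr2), and only for Itpr1 did the test's estimate have the same sign. A processed pseudogene, Gm15720, lies within Itpr2 on the same strand with 0 exon bases shared. It was listed at 8.83 TPM for Ctrl and 0 in Bub1 cKO per the authors' deposited table, but did not pass (statistic -0.58, adjusted p = 0.985).

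Store-operated entry needs a sensor and a channel. Stim1, the sensor of ER calcium, stood at 9.63 TPM for Ctrl and 7.10 TPM for Bub1 cKO per the authors' deposited table (log2 change -0.39). Its estimated log2 change was -0.17, with an interval from -0.81 to 0.47. Orai1, the pore that STIM1 opens, stood at 10.5 and 12.2 TPM per the authors' deposited table (log2 change 0.20), with an estimated log2 change of 0.23 and an interval from -0.62 to 1.09. Sensor and channel lay on opposite sides of 0, and neither passed: the unadjusted p of the authors' test across all genes was 0.605 for Stim1 and 0.593 for Orai1.

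The pumps lower cytosolic calcium. Atp2a2, the SERCA pump that returns calcium to the ER, stood at 11.4 TPM for Ctrl and 16.3 TPM for Bub1 cKO per the authors' deposited table, 43.7% higher, with a log2 change of 0.49. Its estimated log2 change was -0.03, with an interval from -0.52 to 0.47 that does not include the deposited one. The deposited and estimated changes of Atp2a2 lay 2.04 standard errors apart, the widest gap among the 10. Atp2b1, a PMCA pump of the plasma membrane, stood at 112 and 119 TPM per the authors' deposited table (log2 change 0.09), with an estimated log2 change of -0.01 and an interval from -0.24 to 0.22. It is the member measured most precisely, with a standard error of 0.12 against 0.44 for Orai1, the least precise.

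**Figure D2:**
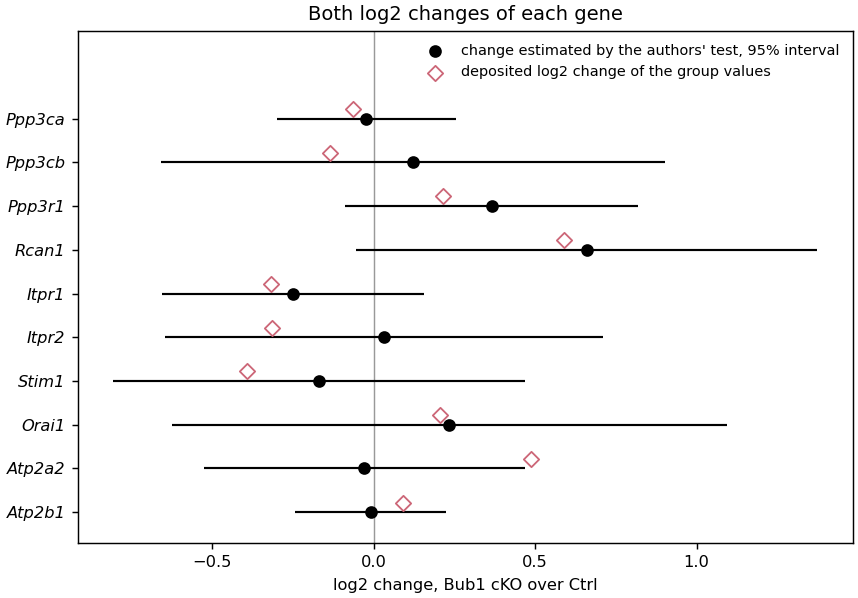
Log2 change of each gene, Bub1 cKO over Ctrl: circles with lines are the change estimated by the authors' test with its 95% interval, and open diamonds the deposited change of the group values. Every interval includes 0, and for Atp2a2 the deposited change of 0.49 lies beyond the upper bound of 0.47.

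The precision sets what could have been called. The smallest statistic in size among the 29 genes called per the authors' deposited table was 3.92, and with it a member needs an estimated log2 change of 0.47 (Atp2b1) or 0.55 (Ppp3ca) to 1.56 (Ppp3cb) or 1.72 (Orai1). Smaller estimates in these genes would not have been called with these errors, and the depth of the libraries is unknown. The median standard error of the 10 was 0.29, against 0.36 over the 4701 gene symbols whose mean lay within the range of the members.

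In 4 of the 10 genes, Ppp3cb, Itpr2, Atp2a2 and Atp2b1, the deposited log2 change and the test's statistic had opposite signs. The same held for 14.6% of the 4701 symbols within the members' range of level and for 9.50% of the whole table. So counted by the deposited log2 change the members also split 5 against 5, but with Atp2a2 and Atp2b1 in place of Ppp3cb and Itpr2 on the higher side. Rcan1, Ppp3r1 and Orai1 were on the higher side and Ppp3ca, Itpr1 and Stim1 on the lower side by both measures. The share of genes with opposite signs moved with the number of transcripts annotated per gene. Over genes at 5 TPM or more on average it was 1.05% of 761 genes with 1 transcript, 10.9% of 1994 genes with 2 to 4, 15.8% of 2539 genes with 5 to 8, 19.6% of 1610 genes with 9 to 16 and 23.5% of 226 genes with 17 or more.

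The members carry 2 (Ppp3r1) to 13 (Itpr1) annotated transcripts, and the 4 with opposite signs carry 5 (Atp2a2), 9 (Ppp3cb), 11 (Itpr2) and 11 (Atp2b1). Coding transcripts of Atp2a2 have 2 annotated 3' ends 2826 bases apart, those of Ppp3cb 4 ends over 8307 bases, those of Itpr2 4 ends over 249401 bases and those of Atp2b1 7 ends over 39021 bases. Among the 6 with equal signs, Itpr1 has 5 ends over 173306 bases, Stim1 4 over 6391, Ppp3ca 2 ends 1948 bases apart, Rcan1 4 over 557, Orai1 2 ends 300 bases apart and Ppp3r1 a single one. The spans of the groups with opposite and with equal signs thus overlapped. The part of transcript structure in the gap between the deposited and the estimated change was not tested.

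**Figure D3:**
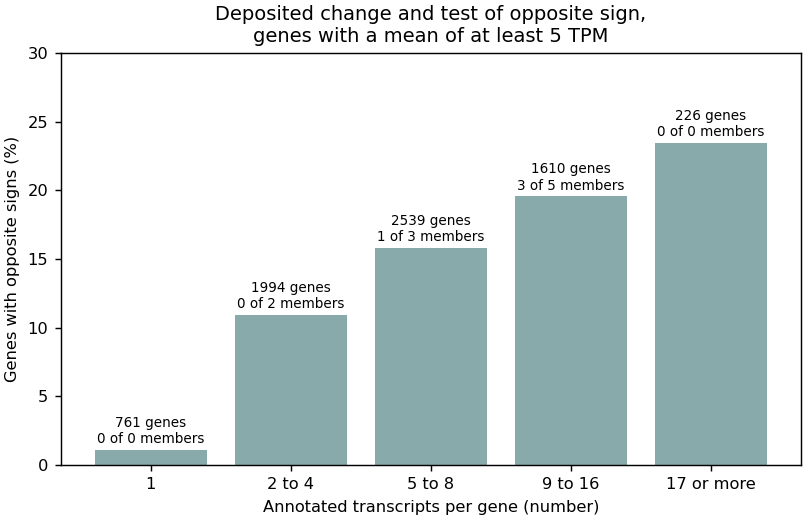
Percent of genes, at 5 TPM or more on average, whose deposited log2 change and test statistic had opposite signs, by number of annotated transcripts (GENCODE M21). The share goes from 1.05% with 1 transcript to 23.5% with 17 or more, and the text over each bar gives the genes and the members in it.

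Most of these proteins come in families, and the shares show which paralog held the larger part of the deposited values. Whether these values were divided by transcript length is unknown, and the shares between paralogs depend on it. Ppp3ca made up 60.2% of the calcineurin A sum in Ctrl and 60.6% in Bub1 cKO per the authors' deposited table, Ppp3cb 39.0% and 37.3%, and Ppp3cc, known from testis, 0.787% and 2.09%. Itpr1 held 63.2% and 60.5% of the IP3 receptor sum, and Itpr3 4.73% and 8.96%. Stim2, the paralog of Stim1, had the larger part of its pair, at 60.1% and 59.4%. The ORAI channels were more even: per the authors' deposited table Orai1 held 40.0% and 41.0%, Orai2 27.0% and 27.7%, and Orai3 33.0% and 31.4%. Rcan3 held 57.4% and 49.4% of the calcipressin sum and Rcan1 42.5% and 44.1%.

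The pump families differed more between groups on this scale. With the test's estimates the SERCA shift kept its direction and the PMCA shift did not. Atp2a2 made up 81.2% of the SERCA sum in Ctrl and 95.4% in Bub1 cKO, where Atp2a1, the skeletal muscle form, was listed at 1.502 TPM for Ctrl and 0 in Bub1 cKO per the authors' deposited table. With the Ctrl value of each paralog multiplied by its estimated change in place of the deposited Bub1 cKO value, an alternative chosen after seeing the data, the share of Atp2a2 was 92.1%. The standard error behind the estimate for Atp2a1 was 3.78. Atp2b1 held 34.7% of the PMCA sum in Ctrl and 50.9% in Bub1 cKO. That shift came with its paralog Atp2b4, at 210 and 115 TPM per the authors' deposited table (log2 change -0.87), whose estimated log2 change of 0.55 (statistic 1.48, adjusted p = 0.985) has the opposite sign. With the estimated changes the share of Atp2b1 for Bub1 cKO was 26.6%, below that in Ctrl, so the direction of this shift turns with the measure. The shares rest on single group values and were not tested.

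**Figure D4:**
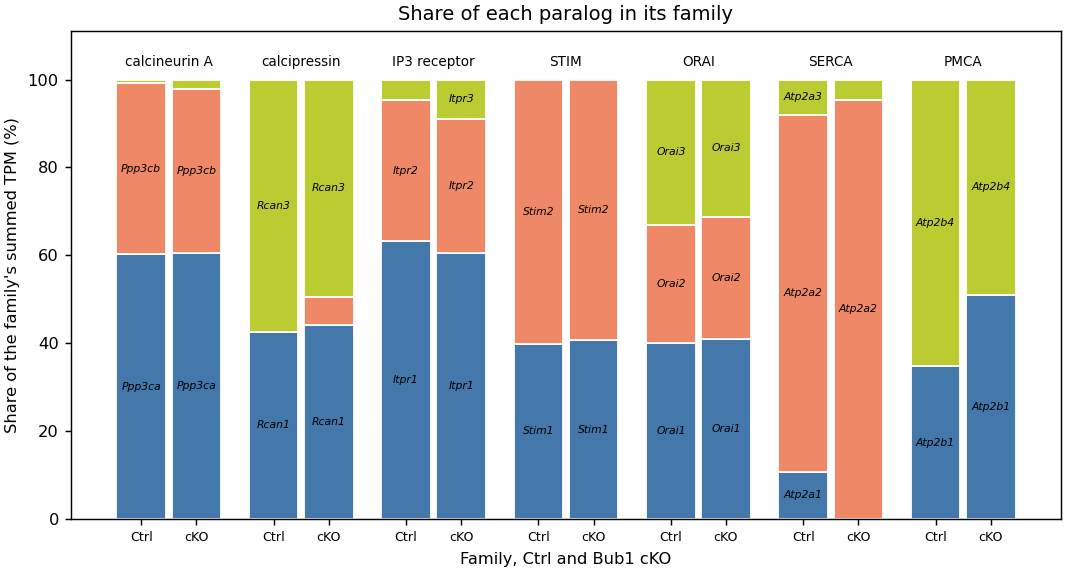
Share of each paralog in the summed TPM of its family, in percent, for Ctrl and Bub1 cKO (1 value per group, no error available, and the thinnest segments carry no name). Ppp3ca and Itpr1 hold over 60% of their families in both groups, and Atp2b1 is at 34.7% and 50.9% of the PMCA family by these values, but at 26.6% for Bub1 cKO by the test's estimated changes, which are not drawn.

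The other genes of the pathway were examined in 7 lists by role. Of 66 listed genes 59 were in the table and 48 averaged 1 TPM or more. By the authors' deposited table, 0 of the 59 passed the adjusted p. The unadjusted p was under 0.05 for 3 on the higher and 3 on the lower side, beside 2.35% and 2.46% of the whole table. Positive and negative statistics numbered 29 and 30, with a median log2 change of -0.01.

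The transcription factor at the end of the chain came nearest to the threshold. Nfatc1 stood at 48.7 TPM for Ctrl and 73.3 TPM for Bub1 cKO per the authors' deposited table (log2 change 0.58, adjusted p = 0.094). The list of NFAT factors and their kinases had 5 positive and 4 negative statistics and 2 genes higher at an unadjusted p under 0.05, Nfatc1 and Dyrk1a. Dyrk1a, a kinase that phosphorylates NFAT and so favours its export from the nucleus, stood at 13.7 and 46.2 TPM per the authors' deposited table (adjusted p = 0.985), with a log2 change of 1.68 against an estimated 0.64. Csnk1a1, a casein kinase, stood at 221 and 202 TPM.

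Among calcineurin regulators 7 statistics were positive and 4 negative, and 1 gene on each side had an unadjusted p under 0.05. Rcan2, a relative of Rcan1, was at 0.045 TPM for Ctrl and 3.04 TPM for Bub1 cKO per the authors' deposited table, where its standard error was 1.91 (adjusted p = 0.910). It reached a mean of 1 TPM only through Bub1 cKO. Ppia, the cyclophilin that cyclosporin uses to block calcineurin, stood at 2869 and 2464.5 TPM per the authors' deposited table (log2 change -0.22, adjusted p = 0.923). Akap5, an anchoring protein that holds calcineurin at the membrane, stood at 52.5 and 69.7 TPM and Rcan3 at 17.9 and 22.9 TPM per the authors' deposited table. Neither passed the threshold.

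On the release side 3 statistics were positive and 3 negative and 0 passed an unadjusted p of 0.05. Plcg1, a phospholipase C-gamma, stood at 2.24 and 1.14 TPM, and Itpr3 at 1.99 and 3.12 TPM per the authors' deposited table. Plcg2, also a phospholipase C-gamma, stood higher, at 9.45 TPM for Ctrl and 7.525 TPM for Bub1 cKO (statistic -0.893). Ryr3, a ryanodine receptor, was at 0.847 TPM for Ctrl and listed at 0 in Bub1 cKO. In the list of entry and surface channels 7 statistics were positive and 3 negative, with 0 at an unadjusted p under 0.05. Stim2 stood at 14.5 and 10.4 TPM, Orai2 at 7.08 and 8.27 TPM, Orai3 at 8.66 and 9.37 TPM and the channel gene Trpv2 at 20.0 and 22.04 TPM per the authors' deposited table. Trpv4, known for calcium entry in osteoclasts, was at 0.231 TPM for Ctrl and listed at 0 in Bub1 cKO.

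Of the other pumps and exchangers 2 statistics were positive and 7 negative, with a median log2 change of -0.29. Only 5 of these 9 genes averaged 1 TPM or more. Atp2c1, the calcium and manganese pump of the Golgi, had the smallest p of this list, at 8.85 TPM for Ctrl and 4.52 TPM for Bub1 cKO per the authors' deposited table (unadjusted p = 0.008, adjusted p = 0.642). Its deposited and estimated log2 changes, -0.84 and -1.05, had the same sign. Slc8b1, the mitochondrial sodium-calcium exchanger, stood at 1.62 and 0.881 TPM.

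Mitochondrial uptake genes, 2 with a positive and 4 with a negative statistic, had 0 at an unadjusted p under 0.05. Mcu, the pore of the uniporter, stood at 18.4 and 15.7 TPM, and Letm1 at 9.92 and 12.9 TPM per the authors' deposited table. Calmodulin kinases had 3 positive and 5 negative statistics. Camk1 stood at 55.4 TPM for Ctrl and 38.1 TPM for Bub1 cKO per the authors' deposited table (log2 change -0.53, unadjusted p = 0.045, adjusted p = 0.985). Camk2d lay on the other side at 12.3 and 24.6 TPM (log2 change 0.95, unadjusted p = 0.059), and Camk2g stood at 7.76 and 8.60 TPM per the authors' deposited table with a statistic of -1.26.

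**Figure D5:**
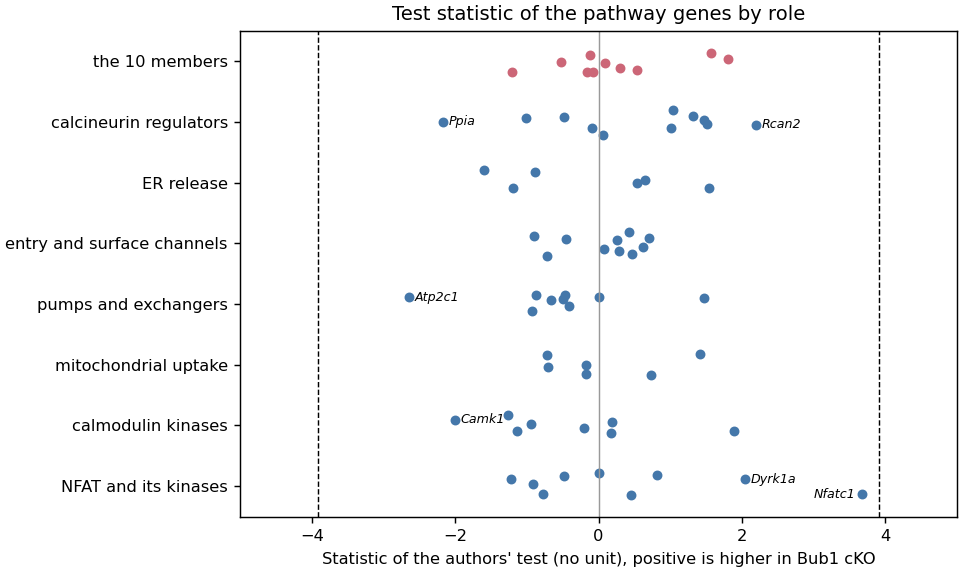
Statistic of the authors' test for the 10 members (top row) and for the 59 other pathway genes by role, positive where the test put the gene higher in Bub1 cKO, with vertical jitter only for legibility. Dashed lines mark 3.92, the smallest statistic in size among called genes, and no point lies beyond them.

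By gene position in GENCODE M21 (GRCm38), none of the 10 members lies on chromosome 2, which carries Bub1. Ppp3ca spans 136670124 to 136937727 on chromosome 3, Ppp3cb 20499364 to 20546573 on chromosome 14 (minus strand), Ppp3r1 17159263 to 17200375 on chromosome 11 and Rcan1 92391953 to 92470867 on chromosome 16 (minus strand). The IP3 receptor genes share chromosome 6, with Itpr1 at 108213096 to 108551109 and Itpr2 at 146108299 to 146502223 (minus strand). Stim1 spans 102267806 to 102437319 on chromosome 7, and Atp2b1 98914406 to 99026143 on chromosome 10. Orai1, at 123015074 to 123030456, and Atp2a2, at 122453513 to 122502225 on the minus strand, share chromosome 5.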

How the data were processed

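Per the labels' protocols, each library used 25 ng of RNA and a QuantSeq 3' mRNA kit. Per the file header, the authors processed the reads through the RaNA-seq web service, and its aligner, build, annotation and test were not given in the sources used here. Group values carry no unit as deposited. The authors' deposited group values were taken as TPM, normalised by the authors to a common total per group, since they sum to 999891 in Ctrl and 999954 in Bub1 cKO, and CPM would sum alike. The deposited log2 change equals that of the group values with a pseudocount of 1 in 15982 of 15982 genes, within 0.002. The deposited statistic and standard error are scores of the authors' test, and the deposited p-values were adjusted over the whole table. Depth is unknown, and the standard error stands for the precision.

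Values per library were not used here, so no model was fitted. Calls are the authors' adjusted p under 0.05. Estimated log2 changes (statistic times standard error) and normal 95% intervals were computed with Python 3.11.15, pandas 2.3.3 and scipy 1.17.1. Alternatives were adjustment over genes averaging at least 1 or 5 TPM, a threshold of 0.1, pseudocounts of 0.1 and 5, centring, the rows of a symbol summed and the estimated change. The adjustment step was tested on simulated data. Named genes are the members, their paralogs averaging at least 5 TPM and up to 3 genes per list with the smallest p. Other paralogs, Plcg2, Wdr92, Gm15720 and the single cell type markers given by name were named after their values were seen. Members and lists were chosen with earlier results of these data known. Of the gene IDs, 91.4% have the same version in GENCODE M21 and 0 a higher one, so GRCm38 was taken as the build, which the file does not state. Transcripts and positions were matched by ID without version (99.5%). Promoter windows are RefSeq's (GRCm38.p6). A gene that the rule names is not reported here.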

Additional observations from a re-analysis of the deposited data

How the results depend on the processing

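The count of members past the threshold was 0 in the main setting and in all 3 alternatives run for it. Among the other pathway genes the count was 0, and 0 with p adjusted over genes averaging at least 1 TPM, but 1 with p adjusted over genes averaging at least 5 TPM and 1 at an adjusted p under 0.1. That gene was Nfatc1 both times. The first of these counts was adjusted over fewer genes than the main one, as was the count of 0 over genes averaging at least 1 TPM. Of 60 member log2 changes recomputed under 6 alternatives, 58 moved by less than the gene's standard error. The 2 that moved by more were Atp2a2 and Itpr2, at -0.03 and 0.03 by the test's own estimate; the cause was not tested. That estimate changed the sign in 4 genes and the other alternatives in 0. By the estimated changes, tried after seeing the data, the share of Atp2b1 in its family for Bub1 cKO was 26.6% in place of 50.9%, and that of Atp2a2 92.1% in place of 95.4%. The median log2 change of the members stayed between 0.01 and 0.02. No paired analysis was possible because the table holds 1 value per group and no columns per library, and for the same reason leaving out single libraries was not run.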

Other observations

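Of the other genes of the pathway, P2rx7 and Gsk3b had TPM values that stood far from the test's own estimate, and Saraf did not. All were picked after seeing their values. P2rx7, an ATP-gated calcium channel of macrophages, was at 11.9 TPM for Ctrl and 3.23 TPM for Bub1 cKO per the authors' deposited table (log2 change -1.61), and the test itself estimated -0.32 (standard error 0.70, adjusted p = 0.985). Gsk3b, a kinase that phosphorylates NFAT, was at 14.9 and 21.4 TPM (log2 change 0.50) per the authors' deposited table, with an estimated log2 change of 0.08. Saraf, which restrains store-operated entry, stood at 28.3 and 29.5 TPM with both changes near 0 (0.06 and 0.07).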
